A study of Mus musculus with 18 samples.

Results

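The genes described here are 13 of the 18118 gene symbols measured in a mouse study that turned pancreatic acinar cells toward beta cells. Each was high in acinar cells and lay near the level of endogenous beta cells at all 4 times at which induced cells were collected. They were chosen on the measured values: log2 signals were quantile-normalized (each array given the same distribution), and a gene was kept if it was detected on all 3 acinar arrays, averaged at least 2 log2 units higher in acinar cells than in beta cells, and averaged less than 0.5 above beta cells at each of the induced times. Detected means a deposited detection p-value, which compares a gene with the array's negative controls, under 0.01. Of 399 acinar-high genes, 13 (3.26%) met the limit at every time. They were Ces1e (named Es22 in the files), Itih2, Tinag, Klk1b7-ps (1700127D06Rik), Rpl22l1 (3110001N18Rik), Ddx20, Acin1, Pdk1, Pcbd1 (Pcbd), Pter, Slc31a2, Rap2c and D17H6S56E-5. Since acinar cells, beta cells and all induced times entered the rule, differences of any of these from beta or acinar cells are given as a description, without a test.

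The study used 18 Illumina MouseRef-8 v2.0 arrays in 6 groups of 3, with all cells from the pancreas of Rag1-/- mice, which make no mature T or B cells. Induced beta cells were collected at day 10, 30 and 60 and at 7 months. Per the labels, adenovirus was injected into the splenic lobe, islets were removed, the acinar fraction was dissociated, and Cherry-positive cells were sorted. The comparison groups were endogenous beta cells and acinar cells of the same strain, which the labels list without an injection of their own. The labels used here name neither the genes carried by the virus nor the ages of the mice. The labels do not say whether the 3 arrays of a group represent different mice, so the spread behind each p-value may be technical only.

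Acinar cells of the pancreas make and secrete digestive enzymes, and beta cells of the islets make insulin. In reprogramming, transcription factors introduced into a differentiated cell switch on the genes of the target cell, while genes of the starting cell have to be turned down. Most genes of a cell are shared with other cell types, so a gene can be higher in acinar cells without being specific to them.

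The name under which these genes were grouped, silenced acinar genes, matched the data only in part. None of the 13 was on the lists of digestive enzymes, acinar secretory proteins or acinar transcription factors. These lists are short, with 26, 18 and 11 genes measured here. Of the 13 genes, 7 (Pdk1, Pter, Pcbd1, Rap2c, Ddx20, Slc31a2 and Acin1) were detected on all 15 arrays of induced and beta cells, so their transcripts were present at a lower level. Rpl22l1 was detected on 11 of these arrays and D17H6S56E-5 on 7. Ces1e and Tinag were detected on 0 of the 15, and Itih2 and Klk1b7-ps on 1 each. Tinag's deposited detection p-values do not lie on the even steps seen for most genes on any of the 18 arrays, so its detection calls are less sure. The same holds for Acin1 on 8 arrays and for Rap2c on 3. Deposited calls can also go against the signals. Klk6, a protease gene, was detected on 0 of the 3 day 10 arrays at 11245 to 11891. Ins1, an insulin gene, was detected on all 3 acinar arrays at 38.5 to 44.9. All detection calls here are used as deposited. RNA came from sorted populations, in which fewer cells of a type and less RNA per cell cannot be told apart.

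The main acinar genes behaved differently. All 25 tested digestive enzyme genes were acinar-high, and 0 of them met the limit at any induced time. Their median difference from acinar cells was -0.09, -0.10, -0.09 and -0.08 log2 units at the 4 induced times, earliest first, and -5.60 in beta cells, on the scale of the rule. Many of these genes lie at the top of the arrays' range, where a saturated signal cannot be told from a higher level and quantile normalization fixes the values of the top ranks, so a difference near 0 does not show an equal level. The brightest signal of an array was 25131 to 36736. Ela2, an elastase gene, had deposited signals of 28632 to 30335 at day 10 and 28807 to 30374 at 7 months, against 2465 to 2665 in beta cells and 33117 to 36736 in acinar cells. The highest induced signals of the other listed genes, Reg1, Ela3b and Try10, likewise lay far above their beta-cell signals, with 25847 to 26408 for Reg1 at 7 months against 1016 to 1178 in beta cells. Ptf1a, a transcription factor of acinar cells that is far dimmer, averaged 10.41, 9.29, 10.19 and 10.23 log2 units at the 4 induced times, earliest first, with 5.83 in beta cells and 11.01 in acinar cells. These values are on the scale of the rule. In deposited signals Ptf1a had 1483 to 1564 at day 10, 819 to 873 at day 30 and 985 to 1645 at day 60. It had 838 to 1733 at 7 months, 47.3 to 54.2 in beta cells and 868 to 1086 in acinar cells. Its order at day 10 and in acinar cells thus turned with the scale. The day 60 and 7-month signals overlapped those of acinar cells, and the day 30 signals lay at their low end or below. The share of the 399 acinar-high genes that met the limit was 15.8% at day 10 (63 genes), 12.5% at day 30 (50 genes), 9.27% at day 60 (37 genes) and 10% at 7 months (40 genes). At no time did 300 of them meet it. The 399 also held markers of other cell types, among them 16 mesenchymal and stellate, 9 endothelial and 3 red blood cell markers. Of these markers 7, 8 and 2 met the limit at day 10, and 0 of each kind at day 60. The fall of the share is thus not one of acinar genes alone. The plot of all acinar-high genes shows the 13 at the low end of the acinar difference, with a median of 2.22 against 2.99 over all 399.

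**Figure D1:**
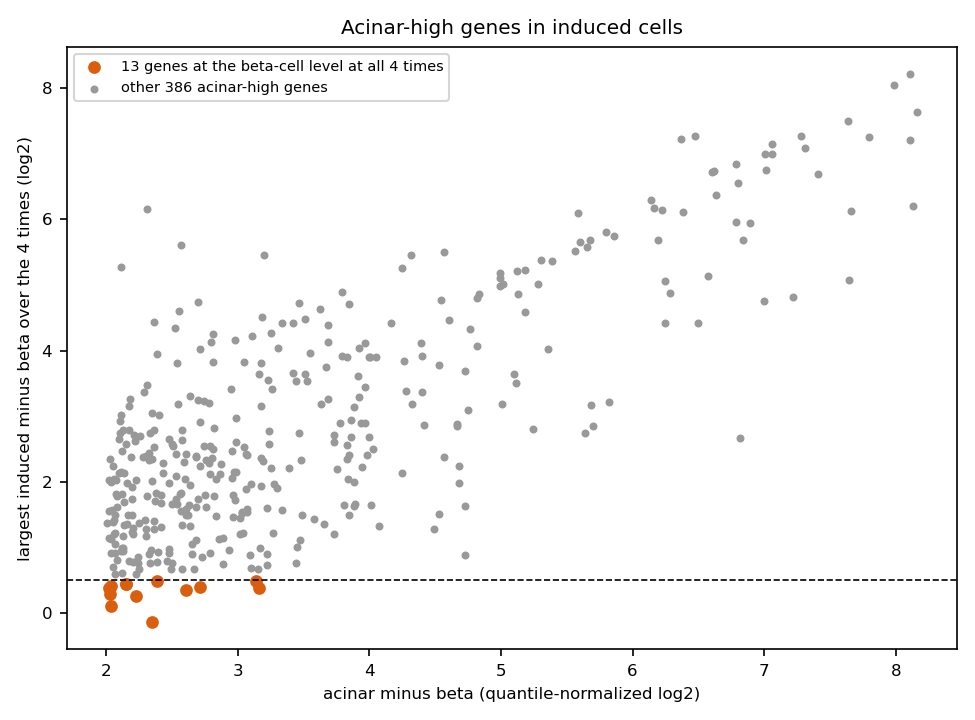
Each point is 1 of the 399 acinar-high genes. The horizontal axis is the difference of the acinar mean from the beta mean, and the vertical axis is the largest difference of an induced time's mean from the beta mean (both quantile-normalized log2, n = 3 arrays per group). The dashed line is the limit of 0.5, and the 13 genes below it have acinar differences of 2.02 to 3.16.

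Promoters of the 3 protein-coding genes that were rarely or never detected outside acinar cells are shown first, because they hold few CG dinucleotides. RefSeq sequences (GRCm38.p6) of the 250 bases before a transcript start were found for 12 of the 13 genes. That start need not be the outermost one of the gene: it lies 12 bases inside the annotated gene for Ces1e, 21 for Tinag, 28 for D17H6S56E-5, 217 for Ddx20, 2073 for Rap2c and 6036 for Slc31a2, at most 9 for Pdk1 and Pter, and at the gene's edge for the others. Ces1e, Itih2 and Tinag lie at chr8:93229620-93229869 (minus strand), chr2:10130684-10130933 (minus strand) and chr9:77045782-77046031 (minus strand), and Rpl22l1, shown for contrast, at chr3:28805258-28805507 (plus strand). Capitals mark AGATAA, a motif of GATA factors, or its reverse complement TTATCT, and in Rpl22l1 2 overlapping matches to TATAAA on opposite strands.
Ces1e: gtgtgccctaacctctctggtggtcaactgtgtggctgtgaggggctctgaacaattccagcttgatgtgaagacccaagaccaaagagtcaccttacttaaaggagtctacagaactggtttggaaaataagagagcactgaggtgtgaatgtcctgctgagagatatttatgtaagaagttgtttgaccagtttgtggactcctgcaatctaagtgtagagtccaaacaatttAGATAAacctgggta
Itih2: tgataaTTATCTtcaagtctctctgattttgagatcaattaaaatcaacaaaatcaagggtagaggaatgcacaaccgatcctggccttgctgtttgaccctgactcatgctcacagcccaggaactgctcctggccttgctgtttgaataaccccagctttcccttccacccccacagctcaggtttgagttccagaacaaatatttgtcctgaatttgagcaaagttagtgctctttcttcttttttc
Tinag: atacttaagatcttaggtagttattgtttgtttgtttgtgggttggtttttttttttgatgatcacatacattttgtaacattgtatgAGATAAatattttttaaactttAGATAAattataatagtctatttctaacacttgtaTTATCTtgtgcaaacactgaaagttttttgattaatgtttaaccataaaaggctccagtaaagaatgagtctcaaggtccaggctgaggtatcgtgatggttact
Rpl22l1: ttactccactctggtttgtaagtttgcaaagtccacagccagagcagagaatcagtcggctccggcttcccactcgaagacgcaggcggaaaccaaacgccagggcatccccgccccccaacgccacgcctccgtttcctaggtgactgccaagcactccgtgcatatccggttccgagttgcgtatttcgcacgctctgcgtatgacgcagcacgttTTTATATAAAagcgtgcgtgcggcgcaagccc
The motif was found once for Ces1e, once for Itih2 and at 3 places for Tinag, and 9.99% of 32851 promoter windows of this length hold it on either strand. Among the other 9 matched genes it was found for Pcbd1 only. The windows of Ces1e, Itih2 and Tinag hold 0, 1 and 1 CG dinucleotides, against 29 for Ddx20, 28 for D17H6S56E-5, 25 for Rap2c, 23 for Rpl22l1, 19 for Pdk1 and 18 for Slc31a2. Pter holds 8, Acin1 7 and Pcbd1 6, and the median window holds 6. The share of all windows with only 0 or 1 was not counted. Since Ces1e, Itih2 and Tinag were put first for this count, the contrast is a description only. Other motifs searched on both strands were CAGCTG (an E-box, in 13% of windows), found for Pdk1 and Pter, CACCTG (17.2%), found for none, GTTAAT (part of the HNF1 site, 6.43%), found for Pcbd1, and TATAAA (12.4%), found for Rpl22l1 and Pcbd1. These matches describe letters and were not tested.

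Before the values by gene, 2 properties of the arrays have to be given. Day 60 and 7-month arrays with the same number were more alike than the late arrays of the same time: over all tested genes the SD of the difference was 0.108 to 0.117 log2 units for same-numbered day 60 and 7-month arrays, against 0.284 to 0.355 for those with other numbers, 0.284 to 0.354 within day 60 and 0.281 to 0.355 within 7 months. Within day 10 it was 0.121 to 0.126 and within day 30 0.0964 to 0.0978. The labels do not say whether same-numbered late arrays share animals, so the 7-month arrays may not be samples independent of the day 60 arrays, although all tests below treat them as such. The rule gave the same 13 genes without the 7-month arrays or without the day 60 arrays. The late arrays numbered 2 also had the highest summed signals of the 41 tested mesenchymal and stellate markers. All marker sums in this paragraph are of quantile-normalized signals, not of deposited ones. On these arrays the sums were 30419 at day 60 and 30035 at 7 months, against 12539 to 17840 on the other 4 late arrays. Sums were 8119 to 8164 at day 30 and 4661 to 4695 at day 10. Beta cells had 2948 to 2973 and acinar cells 13334 to 13491. Summed signals of 21 macrophage and myeloid markers were likewise 14097 and 13922 on these arrays and 5228 to 8953 on the other late arrays. The late arrays numbered 1 were highest for 5 red blood cell markers, with 8388 at day 60 and 8184 at 7 months. These markers had 1219 to 1460 on the other late arrays, 472 to 501 at day 10 and 522 to 561 at day 30. In beta cells they had 341 to 349 and in acinar cells 14562 to 14688. The part of red blood cells in the signals of the 13 genes was not tested.

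The second property is the scale. Between 6678 and 7745 symbols were detected on induced and beta arrays and between 5990 and 6390 on acinar arrays, and the share of all signal in the 50 brightest genes was 10.1% to 15.5% on induced and beta arrays and 25.3% to 27.8% on acinar arrays. In deposited signals, all 3 acinar arrays exceeded the other 15 for all 13 genes. That separation holds for 2.11% of the 8942 tested genes. On normalized levels it holds for 20.5% of them and again for all 13, and the choice of these genes favours it on both. Mean deposited acinar signals were 1.64 times (Ddx20) to 3.51 times (Ces1e) those of the 12 induced arrays. Quantile normalization widened the differences. The acinar minus beta difference was at least 2 for 13 of 13 genes on quantile-normalized log2 values but for 2 of 13, Ces1e and Itih2, on median-scaled and on unscaled log2 values. The median over the 13 was 2.22 on the quantile scale, 2.84 after background correction, 1.23 with median scaling and 0.97 unscaled, where the median of all genes itself was -0.19. Its sign was positive for all 13 on every one of these scales, and every induced mean was below the acinar mean on each. The limit of 0.5 above beta cells was met at all times by 6 genes after background correction, 11 with median scaling and 7 unscaled.

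**Figure D2:**
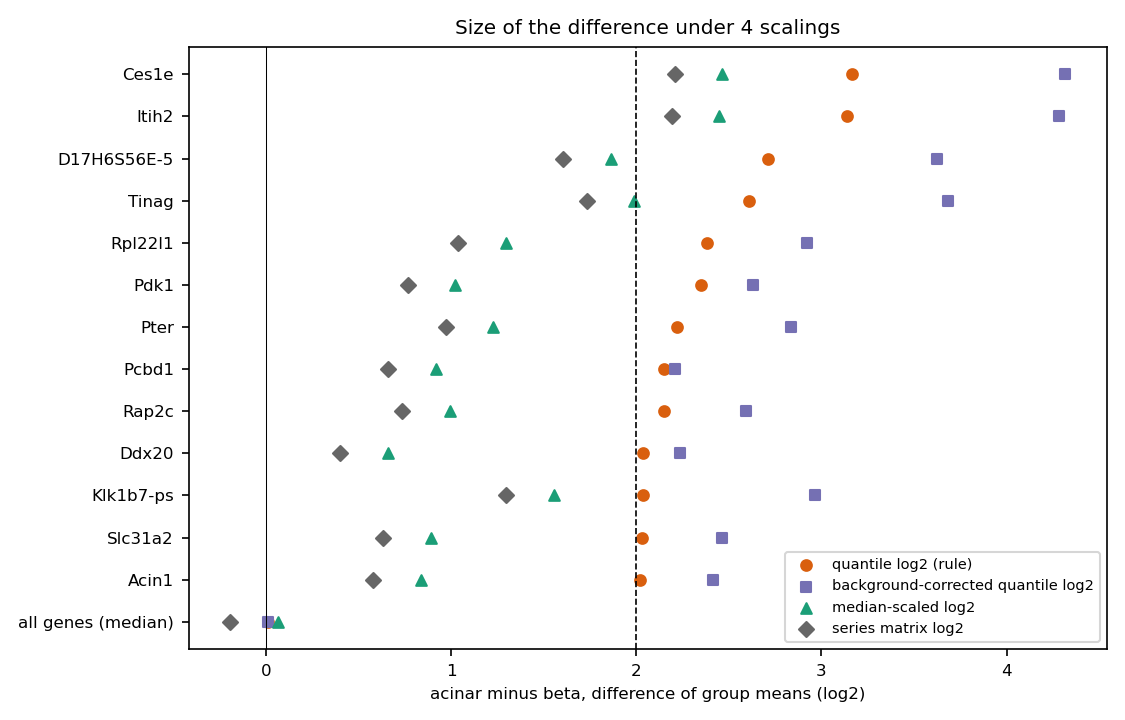
The acinar minus beta difference of group means (log2, n = 3 arrays per group) is drawn for each gene on 4 scales, with the median of all genes in the last row. The dashed line marks the difference of 2 in the rule; the values on the quantile scale lie at 2.02 or above and those on the unscaled values run down to 0.40.

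Ces1e, Itih2 and Tinag encode proteins that leave the cytosol. Ces1e (chromosome 8, 93201218 to 93229631 in GRCm38.p6) encodes a carboxylesterase of the endoplasmic reticulum, also called egasyn, which holds beta-glucuronidase there. Its deposited signals were 74.1, 83.4 and 78.3 at day 10, 69.7, 71.7 and 73.1 at day 30, 64.1, 64.7 and 75.2 at day 60, 62.5, 66.5 and 67.1 at 7 months, 55.9, 53.7 and 50.5 in beta cells and 229.8, 219 and 297 in acinar cells. All 15 signals outside acinar cells lay at the level of undetected genes, far from the acinar signals and without overlap. After background correction and normalization, Ces1e was at least 9.59-fold lower at day 10, at least 12.004-fold lower at day 30, at least 11.1-fold lower at day 60 and at least 12.4-fold lower at 7 months than in acinar cells. These are bounds, from the acinar mean against, on each array, the higher of the gene's own value and the lowest detected signal, and the 4 comparisons share the acinar arrays. They hold for the background-corrected scale only: at day 10 Ces1e differed from acinar cells by -2.79 log2 units on quantile-normalized, -2.01 on median-scaled and -1.65 on unscaled values, and the deposited acinar mean was 3.51 times the induced mean. The bounds of Itih2, Tinag and Klk1b7-ps below carry the same limit, with 3.36, 2.33 and 1.75 times on deposited signals. Another carboxylesterase gene, Ces3, chosen after its values were seen, was also acinar-high but had 731 to 792 at day 10 and 758 to 1633 at 7 months, against 60.6 to 68.2 in beta cells and 432 to 533 in acinar cells. On the scale of the rule Ces3 was at 9.54 at day 10 and 10.04 at 7 months, against 6.07 in beta cells and 10.03 in acinar cells, so that it was not above acinar cells there at day 10. Gusb, the gene of beta-glucuronidase, differed by -0.27 between acinar and beta cells on the scale of the rule.

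Itih2 (chromosome 2, 10094591 to 10130683) encodes a heavy chain of the inter-alpha-trypsin inhibitors, plasma proteins that bind hyaluronan and are made mainly in the liver. Deposited signals were 72.5, 74.4 and 73.4 at day 10, 91.2, 92.8 and 88.4 at day 30, 70.0, 65.5 and 63.6 at day 60, 54.4, 56.0 and 60.3 at 7 months, 54.4, 54.5 and 48.8 in beta cells and 212, 228 and 284 in acinar cells. The 3 day 30 signals were the highest outside acinar cells, and 1 of them was detected. Itih2 was at least 9.25-fold lower at day 10, at least 11.5-fold at day 30, at least 10.7-fold at day 60 and at least 11.98-fold at 7 months than in acinar cells. Of its relatives, chosen after the 13 genes were known, Itih4 was 6.49 log2 units higher in acinar than in beta cells and stayed 3.70 to 4.42 above beta cells in induced cells. Ambp, which encodes the light chain of the same inhibitors, had signals of 4870 to 5363 at day 10, 16211 to 16441 at day 30, 10570 to 14955 at day 60 and 9926 to 13858 at 7 months, against 1942 to 2007 in beta cells and 238 to 279.7 in acinar cells. Itih2 was thus undetected on 11 of the 12 induced arrays, on all of which Itih4 and Ambp were detected. Other heavy chain genes differed from Itih4. Itih1 was not detected in acinar cells, at 47.6 to 53.5, and had 75.9 to 94.4 in beta cells. It had 287 to 324 at day 10 and 316 to 361 at day 30. Itih3 and Itih5 were not detected on any array.

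Tinag (chromosome 9, 76951698 to 77045802) encodes a basement membrane glycoprotein known from kidney tubules. Its signals were 69.4, 70.2 and 74.6 at day 10, 77.1, 74.3 and 76.6 at day 30, 74.3, 74.7 and 77.2 at day 60, 67.0, 81.7 and 78.0 at 7 months, 55.3, 52.7 and 48.4 in beta cells and 169, 154 and 199 in acinar cells. Induced and beta signals did not overlap, but none was detected. The bound was at least 6.09-fold lower at day 10 and at least 7.68-fold lower at 7 months than in acinar cells. The related gene Tinagl, chosen after the 13 were known, was at 6.18, 6.01, 6.22 and 6.36 at the 4 induced times on the scale of the rule, with 5.92 in beta cells and 7.41 in acinar cells. It met the limit above beta cells at every time (0.09 to 0.44) but, at 1.49, not the acinar difference. In deposited signals its 69.5 to 109.6 at 7 months overlapped the 90.7 to 103 of acinar cells.

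Klk1b7-ps (chromosome 7, 43945012 to 43945927) is a transcribed pseudogene of the glandular kallikreins, serine proteases with near-identical family members, so that its probe may share signal with them. It had 63.6 to 66.1 at day 10, 57.5 to 65.7 at day 30, 68.1, 99.3 and 62.6 at day 60, 56.1, 84.0 and 64.6 at 7 months, 44.3 to 51.6 in beta cells and 116 to 126 in acinar cells. The late arrays numbered 2 were the highest outside acinar cells, and the only detected signal outside acinar cells was the 99.3. Lower bounds against acinar cells were 3.53-fold to 4.42-fold at the 4 times. Of 11 other kallikrein genes, chosen after the 13 were known, 6 were acinar-high, and all 6 stayed at least 1.74 log2 units above beta cells at every induced time. A further 4 were not detected in acinar cells, and Klk26 was 1.65 higher in acinar than in beta cells and 0.39 to 0.88 above beta cells in induced cells. Klk1b27 had 12393 to 14440 at day 10 and 10614 to 12195 at 7 months, against 115 to 124 in beta cells and 13428 to 15277 in acinar cells, and Klk1b11 stayed 2.16 to 3.22 log2 units above beta cells.

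Among genes of RNA and protein synthesis, Rpl22l1 (chromosome 3, 28805508 to 28807424), a paralogue of the ribosomal protein Rpl22, varied most between the induced times. Its signals were 152, 141 and 121 at day 10, 188, 202 and 223 at day 30, 79.1, 93.9 and 83.5 at day 60, 71.8, 94.8 and 78.6 at 7 months, 145, 121 and 164 in beta cells and 249, 248 and 403 in acinar cells. Signals at day 60 and 7 months lay below those at day 10, at day 30 and in beta cells, without overlap. It fell by 1.71 ± 0.18 (SE) normalized log2 units at day 60 against day 30 (limma, adjusted p = 8.6e-07, n = 3) and by 1.53 ± 0.18 at 7 months against day 10 (limma, adjusted p = 1.35e-06). Rpl22l1 was detected on 1 of 3 arrays at day 60 and on 1 of 3 at 7 months, so the sizes of these falls are less sure. The change at 7 months against day 10 was -0.25 with negative controls inferred by limma from every detection p-value (limma, adjusted p = 0.0458). On unscaled values it was -0.76 (adjusted p = 0.000469). Against acinar cells Rpl22l1 was 5.46-fold lower at day 10, 4.65-fold at day 30, at least 13.3-fold at day 60 and at least 13.6-fold at 7 months, and the beta level was 7.58-fold lower. On deposited signals the acinar mean was 2.36 times the mean of all induced arrays. The tests between induced times, here and below, use group means that the rule had capped, so they are not independent of the choice of these genes. Rpl22 itself, which was not among the 13, had 1413 to 1521 at day 10, 1424 to 1520.3 at day 30, 1154 to 1299.7 at day 60 and 1062 to 1301 at 7 months, with 682 to 754 in beta cells and 377 to 479 in acinar cells. The order of Rpl22 in beta and acinar cells turned with the scale, since it was at 8.98 in beta and 9.85 in acinar cells on the scale of the rule. Rpl22l1 lies near a limit of the rule, with a day 30 mean 0.49 above beta cells.

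Ddx20 (chromosome 3, 105678270 to 105687788) encodes a DEAD-box helicase, Gemin3, of the SMN complex that assembles spliceosomal ribonucleoproteins. Its signals were 225, 219 and 260.1 at day 10, 339, 351 and 346 at day 30, 367, 299.5 and 349 at day 60, 299.9, 304 and 309 at 7 months, 367, 363 and 407 in beta cells and 485, 463 and 557 in acinar cells. The groups of induced cells all lay below the acinar signals, with day 10 lowest. On normalized values Ddx20 was 4.33-fold to 4.97-fold lower in induced than in acinar cells, against 1.64-fold on deposited signals, the smallest of the 13. At 7 months it was 0.19 ± 0.08 higher than at day 10 (limma, adjusted p = 0.0394). Leaving out the array numbered 1 or 2 at 7 months or at day 10 ended this call (adjusted p of 0.0845 to 0.161). Of other SMN complex genes, Smn1 differed by -1.29 between acinar and beta cells on the scale of the rule and Sip1 by 1.41. Between these lay Gemin7 (0.88), Gemin4 (0.73), Gemin5 (0.07) and Gemin6 (-0.45). Gemin5 and Gemin6 were not detected on any array. For Gemin6 the deposited calls went against the signals, which were 414 to 472 in beta cells and 112 to 138 in acinar cells.

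Acin1 (chromosome 14, 54642161 to 54686965) encodes acinus, a splicing factor of the ASAP complex named for its part in chromatin condensation during apoptosis. It had 169, 169 and 176 at day 10, 159.5, 138 and 142 at day 30, 177, 207 and 149 at day 60, 136, 172 and 139 at 7 months, 182, 183 and 191 in beta cells and 281, 212 and 357 in acinar cells. The day 60 array numbered 2, at 207, came close to the lowest acinar array, at 212, so that the separation rests on a small gap. Acin1 fell by 0.87 ± 0.17 at day 30 against day 10 (limma, adjusted p = 0.000389), rose by 0.46 ± 0.17 at day 60 against day 30 (adjusted p = 0.029), and was lower by -0.61 ± 0.17 at 7 months against day 10 (adjusted p = 0.00426). The last call was lost on unscaled values (-0.21, adjusted p = 0.213) and with negative controls inferred by limma from every detection p-value (-0.19, adjusted p = 0.123). The day 60 and day 30 values overlapped, with SDs of 0.36 at day 60 and 0.15 at day 30 on normalized levels. The limma fit used 1 spread per gene for all groups.

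Metabolic genes were detected in every group. Pdk1 (chromosome 2, 71873215 to 71903858) encodes a kinase that inhibits pyruvate dehydrogenase and so limits the entry of pyruvate into the citric acid cycle. Its signals were 168, 168 and 162 at day 10, 203, 204 and 214 at day 30, 223, 203 and 232 at day 60, 195, 185 and 224 at 7 months, 280.3, 277 and 289.7 in beta cells and 462, 462 and 517 in acinar cells. Every induced array lay below every beta array, and those below every acinar array. On normalized values, Pdk1 was 6.98-fold to 7.99-fold lower in induced than in acinar cells, against 2.42-fold on deposited signals and -1.90 to -1.50 log2 units with median scaling, and its induced means lay -0.28 to -0.14 from beta cells on the scale of the rule, so that it was one of the genes furthest inside the limit. At 7 months against day 10 it differed by 0.04 ± 0.07 (limma, adjusted p = 0.634), but with median scaling by 0.22 (adjusted p = 0.049) and on unscaled values by 0.27 (adjusted p = 0.00489). Of the kinases of the same family, Pdk4 had another pattern. It had 202 to 207 at day 10 and 241 to 597 at 7 months, against 81.5 to 86.0 in beta cells and 48.6 to 60.2 in acinar cells. Pdk2 was 1.05 higher in acinar than in beta cells on the scale of the rule, and 0.50 to 0.71 above beta cells in induced cells. In deposited signals, however, Pdk2 had 117 to 140 at 7 months against 76.9 to 113 in acinar cells. Pdk3 differed by -0.31 between acinar and beta cells on the scale of the rule.

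Pcbd1 (chromosome 10, 61089331 to 61094329) regenerates tetrahydrobiopterin, the cofactor of aromatic amino acid hydroxylases, and binds the transcription factor HNF1 as its dimerization cofactor. It was the brightest of the 13, with 1243 to 1347 at day 10, 1033 to 1225 at day 30, 916 to 1047 at day 60, 837 to 1028 at 7 months, 1101 to 1376 in beta cells and 1776 to 2116 in acinar cells. Beta and acinar signals did not overlap, but the acinar mean was only 1.58 times the beta mean. Pcbd1 fell by 0.57 ± 0.11 at day 30 against day 10 (limma, adjusted p = 0.000483) and was lower by -0.36 ± 0.11 at 7 months against day 10 (adjusted p = 0.00959).

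Pter, which encodes a protein related to phosphotriesterases (chromosome 2, 12924037 to 13003454), had 108 to 122 at day 10, 139.8 to 145 at day 30, 115 to 160.4 at day 60, 101 to 156 at 7 months, 108 to 126 in beta cells and 213 to 262 in acinar cells. It was not called in any comparison between induced times, with 0.01 ± 0.18 at 7 months against day 10 (limma, adjusted p = 0.977). Slc31a2 (chromosome 4, 62280393 to 62298412), a low-affinity copper transporter also called CTR2, had 143 to 158 at day 10, 131 to 159.7 at day 30, 95.05 to 153 at day 60, 121 to 124 at 7 months, 154 to 179 in beta cells and 231 to 305 in acinar cells. Slc31a2 fell by 0.55 ± 0.18 at day 30 against day 10 (limma, adjusted p = 0.0128) and was lower by -0.75 ± 0.18 at 7 months against day 10 (adjusted p = 0.00115), but by -0.29 on unscaled values, where the call was lost (adjusted p = 0.066). Its high-affinity relative Slc31a1 had 643 to 766 at 7 months, against 726 to 851 in beta cells and 408 to 489.8 in acinar cells. Acinar cells were lowest in these deposited signals but highest on the scale of the rule, with 9.42 at 7 months, 9.10 in beta cells and 9.92 in acinar cells.

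Rap2c (chromosome X, 51003912 to 51020091) encodes a small GTPase of the Ras family, and had the largest rise of the 13 over the induced times. Its signals were 109, 107 and 111 at day 10, 166, 161 and 168 at day 30, 202, 247 and 189 at day 60, 159.8, 214 and 176 at 7 months, 171, 164 and 173 in beta cells and 269, 253 and 328 in acinar cells. Day 10 was the lowest group, without overlap with any other, and day 60 the highest of the induced groups. Rap2c was 0.38 ± 0.13 higher at day 30 than at day 10 (limma, adjusted p = 0.0155), 0.56 ± 0.13 higher at day 60 than at day 30 (adjusted p = 0.00121) and 0.82 ± 0.13 higher at 7 months than at day 10 (adjusted p = 2.32e-05). The late arrays numbered 2, with the most mesenchymal and myeloid marker signal, were also the highest for Rap2c, and the part of those cells in it was not tested. With the late arrays of a number averaged into 1, the rise was 0.88 (limma, adjusted p = 2e-06). The size of the rise at 7 months against day 10 moved with the processing. It was 0.99 with median scaling, 0.58 without background correction and 0.21 with negative controls inferred by limma from every detection p-value.

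D17H6S56E-5 (chromosome 17, 34996678 to 35000774) is given without a role. It had 98.0, 114 and 95.9 at day 10, 119, 113 and 126 at day 30, 75.6, 114 and 64.3 at day 60, 73.7, 119 and 65.4 at 7 months, 85.5, 80.1 and 83.4 in beta cells and 250.4, 199 and 323 in acinar cells. The late arrays numbered 2 stood alone near the day 30 values, with the other late arrays below the beta arrays. Its change at 7 months against day 10 was -0.72 ± 0.31 (limma, adjusted p = 0.047), and leaving out any acinar, beta, day 10 or day 30 array, or the 7-month array numbered 1 or 3, ended the call, with adjusted p of 0.0508 to 0.234.

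**Figure D3:**
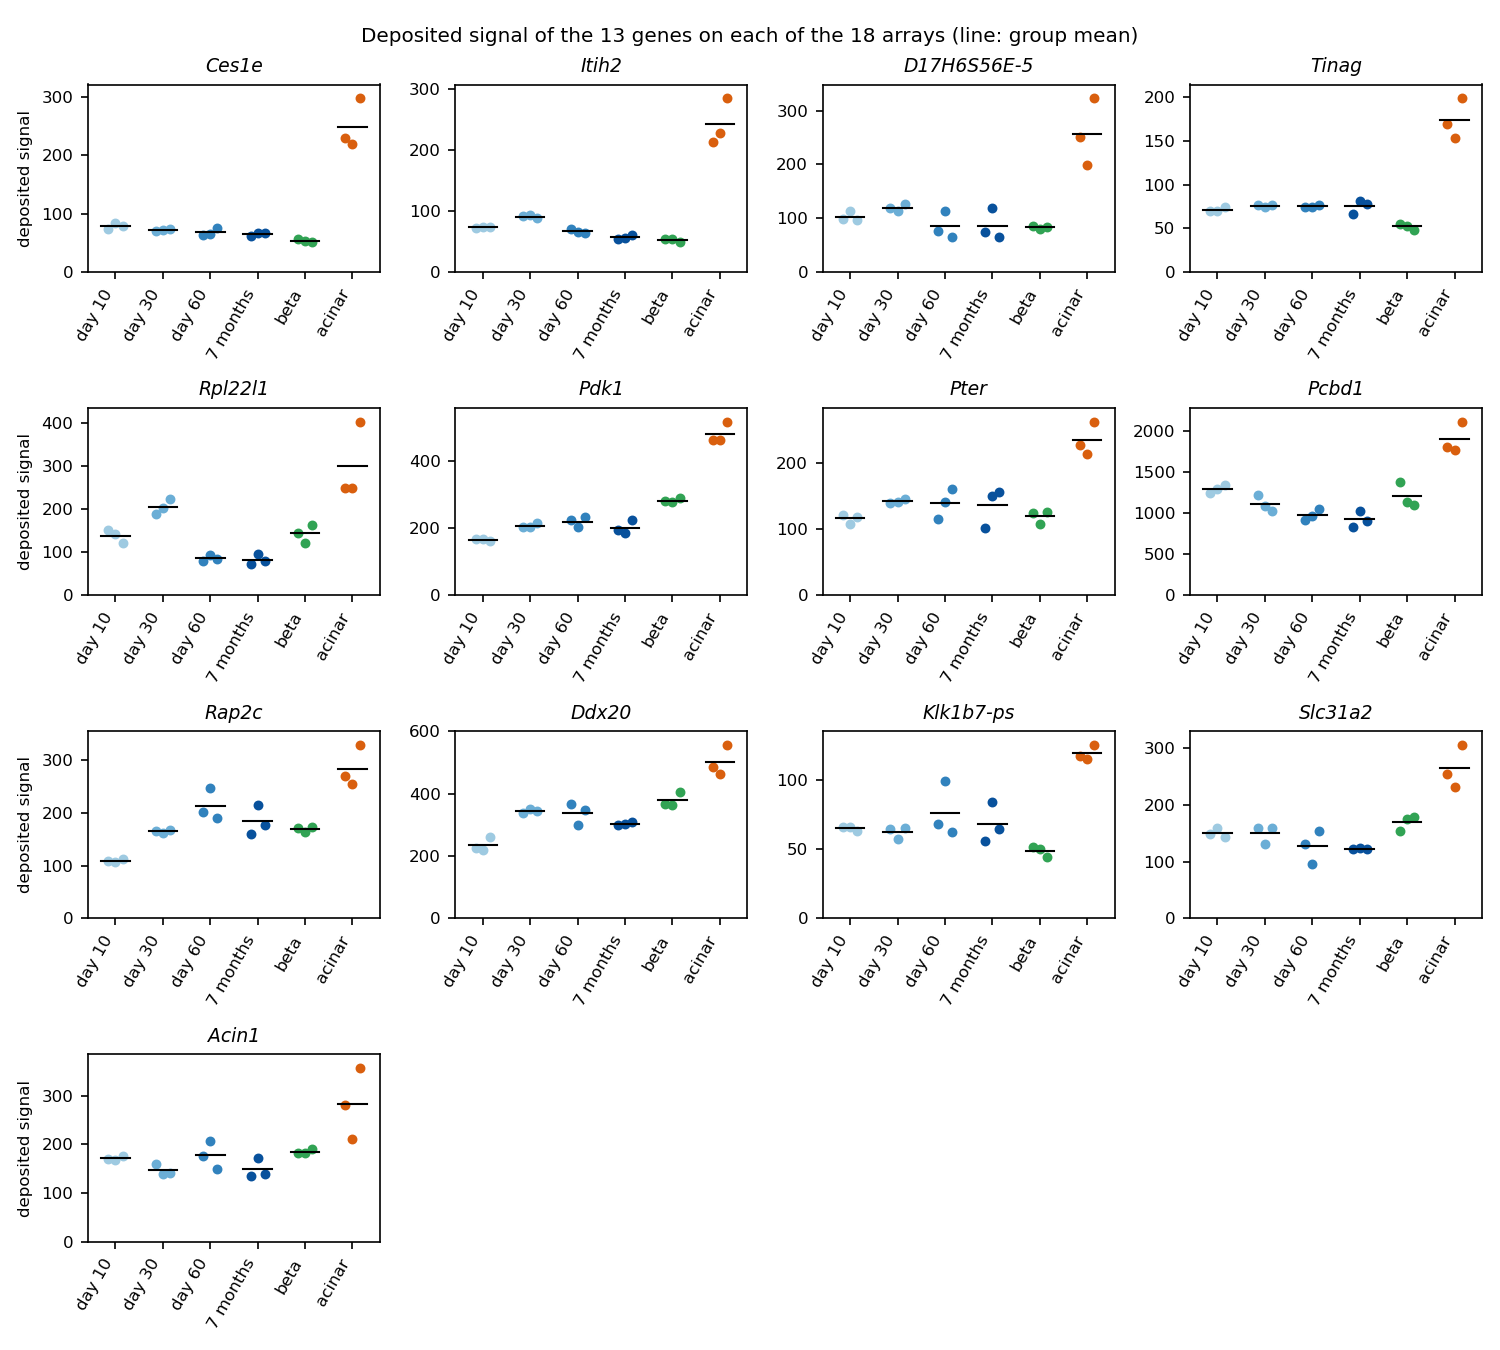
Each panel shows 1 of the 13 genes. Points are the deposited signals of the 3 arrays of each group, in the order day 10, day 30, day 60, 7 months, beta cells and acinar cells, and lines are group means. Acinar signals are highest in every panel, and the late arrays numbered 2 stand high for D17H6S56E-5 and Klk1b7-ps.

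The induced times were compared with limma on background-corrected, quantile-normalized log2 levels over all 8942 tested genes, at an adjusted p under 0.05. The rule compared no time with another, but it used every induced mean and capped it at 0.5 above beta cells. This limits rises and variation between the times, so the counts describe the 13 and nothing is read from them against the background. Of the 13, 8 varied over the 4 times (F-test), against 83.8% of all tested genes. At 7 months against day 10, 10 of the 13 were called, against 75.0% of tested genes: 3 were higher, against 35.4% of tested genes, and 7 lower, against 39.6%. Their median change was -0.34, which is the value of the undetected Itih2, with -0.05 over all tested genes, and it moved to -0.15 with an offset of 50 and to -0.04 with negative controls inferred by limma from every detection p-value. Of these 10, Ces1e and Itih2 (lower) and Tinag (higher) were detected on 0 of the 6 arrays compared, so they have no measured fold, and the 7 detected ones were 2 higher (Rap2c and Ddx20) and 5 lower (Rpl22l1, Slc31a2, D17H6S56E-5, Acin1 and Pcbd1). Of these, Rpl22l1 was detected on only 4 of the 6 arrays and D17H6S56E-5 on 3. At day 30 against day 10, 6 of the 13 were called, against 61.2% of tested genes. Itih2 and Rap2c were higher, and Pcbd1, Acin1, Slc31a2 and the undetected Ces1e lower. At day 60 against day 30, 5 were called, against 61.9%. Rap2c, Acin1 and Pdk1 were higher, and Rpl22l1 and Itih2 lower. At 7 months against day 60, 0 of the 13 were called, and 0 of the 8942 tested genes (0%). With unadjusted p under 0.05, 200 genes and 1 of the 13 passed there, and in a paired fit by array number 551 genes and 2 of the 13 passed unadjusted, with 0 adjusted. Because same-numbered late arrays may not be independent, the count of 0 does not show that the late times were alike.

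**Figure D4:**
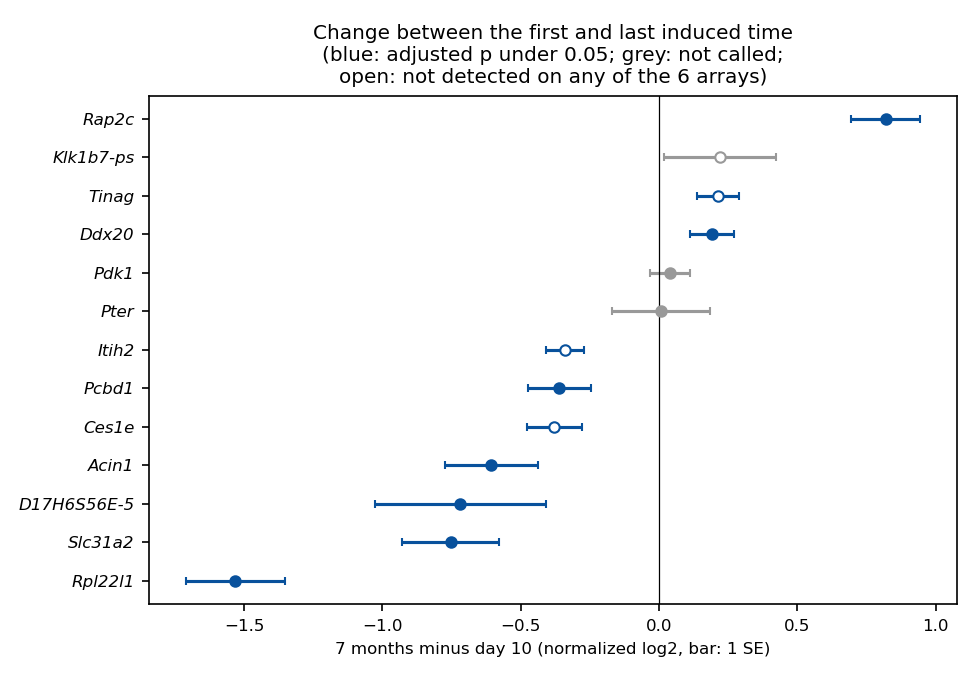
The change of each gene at 7 months against day 10 is drawn on the normalized log2 scale with 1 SE from limma (n = 3 arrays per group). Blue points are called at an adjusted p under 0.05, grey ones are not, and open ones were not detected on any of the 6 arrays. Rpl22l1 lies at -1.53 and Rap2c at 0.82.

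Near the limits of the rule, Rpl22l1 (0.49), Itih2 (0.49) and Pcbd1 (0.44) had the largest induced means above beta cells among the 13. Just outside lay Ubl4 (0.59), Slc26a6 (0.60) and Cbs (0.60). On the acinar side Acin1 (2.02), Slc31a2 (2.03) and Klk1b7-ps (2.04) were closest inside, and Hrsp12 (1.98), Sephs2 (1.97) and Hdac11 (1.92) closest outside. Gatm and Tead2, which the rule leaves out by name, exceed the limit in any case, with 1.11 above beta cells at day 30 for Gatm and 4.42 at day 10 for Tead2.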

How the data were processed

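Per the labels, RNA of each group was hybridised to 3 Illumina arrays. The deposited table gives, per the file headers, 18118 gene symbols with an intensity on every array and the detection p-value that goes with it. The authors' series matrix held log10 of the same signals for 18112 symbols. How background and probes were handled upstream is not given in the sources. Genes were chosen on quantile-normalized log2 signals. Tests used limma 3.58.1 in R 4.3.3 after normexp with negative controls inferred from detection p-values on the grid of 798 steps, offset 16 and quantile normalization, over all 18 arrays. The 8942 genes with detection p under 0.01 on at least 3 arrays were tested, and 9176 were left out. All 13 passed this filter, since the rule demands detection on the 3 acinar arrays. P-values were adjusted by Benjamini-Hochberg over all tested genes. The inference of negative controls and the limma test were checked on simulated data. Current gene names and coordinates come from RefSeq (GRCm38.p6), since the files give only symbols, and promoters from the same build. The 13 genes and all lists were chosen with earlier results of these data known. Named genes were the 13 themselves, the genes nearest the limits, Gatm and Tead2, and the 4 acinar-list genes highest in acinar cells among those that stayed high. Relatives of the 13 were chosen after the genes were known. Same-numbered day 60 and 7-month arrays deviated together (correlations of 0.80 to 0.87), while the other pairs among the induced groups had correlations under 0.1, so the numbers were not taken to pair all groups. The number of arrays limits the precision.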

Additional observations from a re-analysis of the deposited data

How the results depend on the processing

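The number of genes that met the rule moved with the scale and with its thresholds. The same rule gave 28 genes on background-corrected values (6 of the 13 among them), 2 on median-scaled values (Ces1e shared) and 0 on unscaled values. A limit of 1 above beta cells gave 54 genes, a limit of 0.25 gave 2 (Ddx20 and Pdk1), and an acinar difference of 1 gave 237. Alternatives chosen after seeing the data were the rule without the 7-month or without the day 60 arrays (13 genes each), without the demand on detection (16), F-tests without either late time (9 and 8), and late arrays averaged by number (3 higher, 7 lower). Leaving out single arrays gave 11 to 14 genes, 6 to 10 that varied over the induced times, 1 to 3 higher and 6 to 7 lower at 7 months against day 10, 5 to 7 called at day 30, 3 to 7 at day 60 and 0 to 0 between the late times. Without the day 10 array numbered 1 or 2, or the 7-month array numbered 2, the count of higher genes was 1, and without the day 30 array numbered 2 the count at day 60 against day 30 was 3. The rule lost Rap2c and Klk1b7-ps without the day 60 array numbered 3, Pcbd1 and Slc31a2 without beta array 1, Rpl22l1 and Klk1b7-ps without beta array 3, Rpl22l1 without acinar array 1 or 2 or day 30 array 1, and Acin1 without acinar array 3. With negative controls inferred by limma from all detection p-values, 4 genes varied, 3 were lower at 7 months, 2 were called at day 30 and 2 at day 60. On unscaled values 4 were lower at 7 months. The cause was not tested. The fit with the replicate number as a block gave 8 that varied, 3 higher, 7 lower, 6 at day 30, 7 at day 60 and 0 between the late times. Of 270 settings of the 10 genes called at 7 months against day 10, 231 kept the call and 39 lost it: 21 for D17H6S56E-5, 8 for Tinag, 5 for Ddx20, 2 for Acin1 and 1 each for Ces1e, Itih2 and Slc31a2. Of 81 settings of the 3 genes not called, 79 stayed so and 2 gained a call (Pdk1). None reversed among the called genes. Many of these settings could not reverse a change, because they leave the difference of 7 months and day 10 as it was. These drop an acinar, beta, day 30 or day 60 array, or alter only the filter, the block or the arrays in the fit. In them only the p-value could move, so the count of kept calls overstates how firm the changes are. Signals near the negative controls limit Ces1e, Itih2, Tinag and Klk1b7-ps to bounds. The same holds for Rpl22l1 at day 60 and 7 months, and for D17H6S56E-5 at these times and in beta cells.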
